A study of Mus musculus with 30 samples.

Results

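The response to interferon gamma (IFNG) was compared between KO1 and KO2, both knockout clones of J774A.1, a mouse macrophage-like cell line. All 12 RNA-seq libraries of these clones, of 30 in the series, were used, with 3 libraries in each of 4 groups: KO1 untreated (UT), KO1 treated with 100 ng/mL recombinant IFNG for 4 h, KO2 untreated and KO2 treated in the same way. Both clones were made by electroporating Cas9 with a guide pair and are homozygous for deletion of B2_Mm2.Dicer1, a B2 short interspersed element within Dicer1, and each is a single clone isolated by limiting dilution. The comparison is therefore between clones that share the deletion and the treatment, and what the deletion does cannot be read from it. The other 18 libraries come from 3 wild-type clones (WT1, WT2 and WT3). They served as a reference for how far clones of this line differ and to choose genes induced or repressed by IFNG. All 30 libraries were also fitted or scaled together where stated. The measure asked for each gene was the interaction, which is the log2 fold change (log2FC) after IFNG in KO1 minus the log2FC after IFNG in KO2. A positive interaction is a larger increase, or a smaller decrease, in KO1.

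The guides are shown because the sequence they flank is what both clones lack. Each is written 5′ to 3′ with its protospacer adjacent motif in capitals.
gEC005, upstream of the element: ggccagggaacggctttagaGGG
gEC007, downstream of the element: aaatagtcactgggcaacagTGG

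IFNG binds a receptor whose associated kinases JAK1 and JAK2 phosphorylate transcription factors of the STAT family, which then bind gamma-activated sites (GAS) in promoters and enhancers of IFN-stimulated genes (ISGs). Products of early targets such as IRF1 act on IFN-stimulated response elements (ISREs) of further ISGs, and SOCS proteins, induced by the same signal, inhibit the kinases. In macrophages the genes switched on include guanylate-binding proteins, immunity-related GTPases, antigen-presentation genes and chemokines. Genes driven by NF-kB, a transcription factor family held back by the inhibitor encoded by Nfkbia, are partly active in macrophages before any cytokine is added.

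Dicer1, the gene that contains the deleted element, had 68.8 to 71.3 CPM (the count relative to the normalised library total) in the 3 untreated KO1 libraries and 99.8 to 107 CPM in the 3 untreated KO2 libraries. After IFNG it had 70.9 to 80.4 CPM in KO1 and 95.5 to 103 CPM in KO2. The 2 clones did not overlap in either treatment, and KO2 was the higher one. The log2 difference, KO1 minus KO2, was -0.56 untreated and -0.39 after IFNG, beside medians of -0.37 and -0.36 over the 509 tested genes of chromosome 12, on which Dicer1 lies. The part of the whole chromosome in the difference at Dicer1 was not tested. The interaction of Dicer1 was 0.17 ± 0.07 (SE) with an adjusted p of 0.724 in edgeR's quasi-likelihood test, so no difference in its IFNG response was detected. The element itself is not an exon and has no count in these tables. Libraries held 19820090 to 37992642 counted fragments (median 26630614). Every library correlated better with its own group (lowest Pearson r 0.981 over the 500 most variable genes) than with any other group (highest r 0.936), and no pair of replicates agreed within sampling noise. The summed level of 16 macrophage markers was 7540 to 8460 CPM over all libraries, led by Lyz2, whereas 12 markers of T, NK and B cells together reached at most 0.270 CPM, those of fibroblasts and epithelia 4.19 CPM and those of granulocytes and dendritic cells 8.31 CPM. Because whole cultures were measured, fewer cells expressing a gene and less RNA per cell cannot be told apart in any value below.

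Both clones responded strongly and largely in the same genes. Of 14370 genes tested, 2310 (16.1%) were higher and 1939 (13.5%) lower after IFNG in KO1, and 2050 (14.3%) were higher and 1897 (13.2%) lower in KO2 at an adjusted p under 0.05. The genes higher in both clones numbered 1713, which is 74.2% of those in KO1 and 83.6% of those in KO2. Those lower in both numbered 1405, or 72.5% and 74.1%. A single gene, Pde1b, was called in opposite directions. Although 1958 genes passed the threshold in 1 clone and not in the other, the interaction was called for 6 of them, so most such genes were not shown to differ between the clones. Over all genes tested the responses of the clones had a Pearson r of 0.92 and a Spearman rho of 0.69. Genes are not independent replicates, so no p is given.

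The interaction passed the threshold for 22 genes. The response was larger in KO1 for 20 genes (0.139% of those tested) and larger in KO2 for 2 genes (0.0139%). Without adjustment, 927 genes had p under 0.05, of which 677 had a positive and 250 a negative interaction. The last genes inside the threshold were Ifi44, Cdc42ep2 and Pou2f2 (adjusted p = 0.0477, edgeR), and the first outside were Ccrl2 (interaction 0.81, adjusted p = 0.0522), Ptger4 (0.48, 0.0536) and Lncpint (1.00, 0.0690). They include regulators of JAK-STAT signaling (Socs3, Stat3 and Pim1), ISGs (Gbp7, Parp14, Ifi44 and Slfn4), genes of the NF-kB and immediate early programs (Zfp36, Nfkbia and Ier3) and the nuclear noncoding RNAs Neat1 and Malat1. The plot of levels by library shows 12 of these genes, most with a lower untreated level in KO1.

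**Figure D1:**
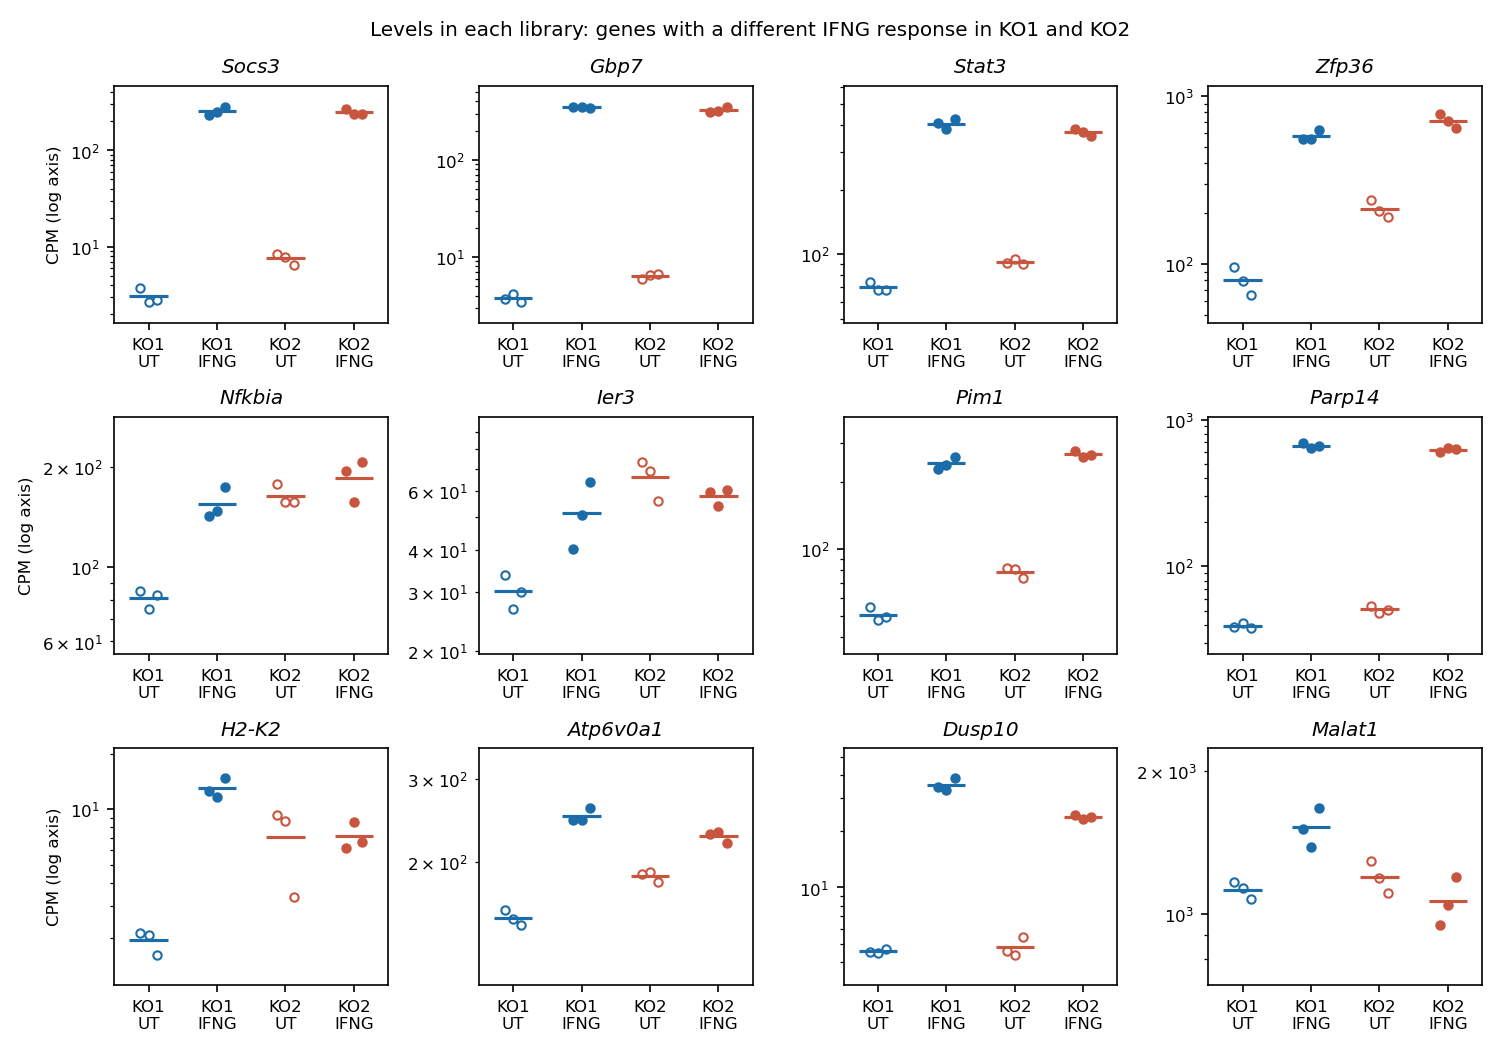
CPM of 12 called genes in each library (log axis, scaled for each gene), with open points for untreated and filled points for IFNG-treated libraries, KO1 in blue and KO2 in red, and a line at the mean of 3 libraries. For Socs3 the untreated KO1 libraries sit at 2.66 to 3.75 CPM and the untreated KO2 libraries at 6.43 to 8.44 CPM, whereas the treated libraries of both clones lie together.

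Among the signaling regulators, Socs3 had the largest difference. Socs3 (ENSMUSG00000053113.3, chromosome 11, 117966079 to 117970047 on the minus strand, mm10) encodes an inhibitor of cytokine receptor signaling that is itself a STAT target. It had 3.75, 2.66 and 2.78 CPM in untreated KO1 and 8.44, 7.93 and 6.43 CPM in untreated KO2. After IFNG it had 231, 249 and 284 CPM in KO1 and 270, 240 and 239 CPM in KO2. The untreated libraries of the clones were fully separated, whereas the treated libraries overlapped. Its log2FC was 6.38 ± 0.12 (SE) in KO1 and 5.04 ± 0.10 in KO2, an interaction of 1.34 ± 0.17 (adjusted p = 0.00421, edgeR).

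Stat3 (chromosome 11, 100885098 to 100939540, minus strand) encodes a STAT protein activated by many cytokines. Its level was 68.2 to 74.3 CPM in untreated KO1 and 90.4 to 94.6 CPM in untreated KO2, and 382 to 426 CPM and 356 to 382 CPM after IFNG. KO1 was lower than KO2 before treatment and narrowly above it after IFNG, with no overlap in either. The log2FC was 2.53 ± 0.05 in KO1 and 2.004 ± 0.05 in KO2, giving an interaction of 0.52 ± 0.07 (adjusted p = 0.00421, edgeR). Pim1, a serine/threonine kinase gene induced through STATs, had means of 50.5 and 78.9 CPM in untreated KO1 and KO2 and 242 and 266 CPM after IFNG, with an interaction of 0.51 ± 0.08 (adjusted p = 0.0171, edgeR). Csf2rb2, which encodes a beta subunit of the IL-3 receptor, was lower in KO1 in both treatments (30.98 against 51.92 CPM untreated, 99.5 against 126.5 CPM treated), and the gap narrowed after IFNG (interaction 0.40 ± 0.07, adjusted p = 0.0472, edgeR).

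The smallest p belonged to Gbp7 (ENSMUSG00000040253.15, chromosome 3, 142530342 to 142550149, plus strand), a guanylate-binding protein gene of the cell-autonomous defense against intracellular pathogens. The untreated libraries held 3.67, 4.13 and 3.42 CPM in KO1 and 5.98, 6.52 and 6.72 CPM in KO2, and the treated libraries 352, 349 and 347 CPM in KO1 and 314, 320 and 350 CPM in KO2. The untreated clones were separated and the treated clones overlapped. Gbp7 rose by a log2FC of 6.55 ± 0.07 in KO1 and 5.67 ± 0.07 in KO2 (interaction 0.87 ± 0.11, adjusted p = 0.00343, edgeR). Gm43802, an annotated gene with the same pattern (interaction 1.11 ± 0.19, adjusted p = 0.0202, edgeR), lies at 142547882 to 142548518 inside the last exon of Gbp7 on the same strand. Per the file headers, fragments over both were counted for each, so it is not separate evidence. The counts of called genes nevertheless include Gm43802 beside Gbp7.

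Promoter windows of Socs3 and Gbp7 are shown because they are the STAT-responsive genes with the clearest difference. They are RefSeq windows of 300 bases (250 before and 50 after the annotated start, GRCm38.p6), written 5′ to 3′ on the strand of the gene. Capitals mark matches on either strand to a GAS core (TTCNNNGAA) or to an ISRE core (GAAANNGAA), and matches of different motifs may overlap. The Socs3 window (chr11:117969317-117969616, minus strand) has a GAS match that begins 154 bases before the start. The Gbp7 window (chr3:142530086-142530385, plus strand) has GAS matches that begin 106 and 87 bases before the start and an ISRE match that begins 52 bases before it. The RefSeq start of Socs3, and that of Zfp36 below, lies inside the gene span of the deposited annotation given above, so these windows lie within that span.
Socs3: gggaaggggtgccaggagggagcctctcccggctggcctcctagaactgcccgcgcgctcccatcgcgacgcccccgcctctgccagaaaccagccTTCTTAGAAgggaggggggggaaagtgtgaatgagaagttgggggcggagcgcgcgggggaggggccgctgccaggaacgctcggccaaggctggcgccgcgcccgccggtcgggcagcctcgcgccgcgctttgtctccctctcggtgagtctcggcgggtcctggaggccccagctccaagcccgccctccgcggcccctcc
Gbp7: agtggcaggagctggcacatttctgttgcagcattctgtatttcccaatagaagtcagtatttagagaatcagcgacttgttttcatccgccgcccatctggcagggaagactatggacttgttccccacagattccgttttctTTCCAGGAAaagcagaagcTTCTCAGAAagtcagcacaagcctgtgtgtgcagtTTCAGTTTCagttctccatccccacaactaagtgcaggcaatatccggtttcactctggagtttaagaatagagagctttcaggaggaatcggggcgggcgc

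The second set consists of genes that respond to NF-kB or to immediate early signals. Zfp36 (ENSMUSG00000044786.6, chromosome 7, 28376784 to 28380253, minus strand) encodes tristetraprolin, an RNA-binding protein that promotes decay of cytokine mRNAs. It had 96.1, 79.4 and 65.6 CPM in untreated KO1 and 240, 205 and 190 CPM in untreated KO2. After IFNG it reached 553, 553 and 624 CPM in KO1 and 779, 705 and 646 CPM in KO2. KO1 lay below KO2 in both treatments without overlap, but the gap shrank from a log2 difference of -1.40 ± 0.11 to -0.30 ± 0.10. The log2FC was 2.84 ± 0.11 in KO1 and 1.74 ± 0.11 in KO2 (interaction 1.099 ± 0.15, adjusted p = 0.00421, edgeR).

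Nfkbia (chromosome 12, 55489410 to 55492647, minus strand) encodes the NF-kB inhibitor IκBα and is itself an NF-kB target. Untreated KO1 libraries held 84.7, 75.3 and 82.7 CPM and untreated KO2 libraries 177, 156 and 157 CPM. With IFNG the values were 142, 148 and 174 CPM in KO1 and 194, 157 and 206 CPM in KO2. The untreated clones were separated and the treated clones overlapped. Nfkbia rose in KO1 by a log2FC of 0.94 ± 0.09, and in KO2 its log2FC was 0.18 ± 0.09 with an adjusted p of 0.146 (edgeR). The interaction was 0.75 ± 0.13 (adjusted p = 0.0202, edgeR). The 509 tested genes of chromosome 12 had a median level difference, KO1 minus KO2, of -0.37 untreated and -0.36 after IFNG on the log2 scale, and a median interaction of 0.023. The lower level of chromosome 12 in KO1 thus stood beside the level of Nfkbia but was nearly equal in both treatments, and its part in the result for Nfkbia was not tested. Ier3, an immediate early gene linked to survival under stress, had 26.7 to 33.5 CPM in untreated KO1 and 56.1 to 73.0 CPM in untreated KO2. Its treated libraries overlapped, at 40.3 to 63.7 CPM and 54.1 to 60.5 CPM (interaction 0.96 ± 0.18, adjusted p = 0.0472, edgeR).

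The windows of Zfp36 and Nfkbia are shown because these genes had the smallest interaction p (edgeR) in the second set. Matches to the NF-kB consensus are in capitals as well. The shown windows all hold a match, whereas the windows of Stat3 and Pim1, which are not shown, hold no GAS, ISRE or NF-kB match. The Zfp36 window (chr7:28379179-28379478, minus strand) has a GAS match that begins 17 bases before the start. The Nfkbia window (chr12:55492598-55492897, minus strand) has an ISRE match that begins 53 bases and an NF-kB match that begins 29 bases before the start.
Zfp36: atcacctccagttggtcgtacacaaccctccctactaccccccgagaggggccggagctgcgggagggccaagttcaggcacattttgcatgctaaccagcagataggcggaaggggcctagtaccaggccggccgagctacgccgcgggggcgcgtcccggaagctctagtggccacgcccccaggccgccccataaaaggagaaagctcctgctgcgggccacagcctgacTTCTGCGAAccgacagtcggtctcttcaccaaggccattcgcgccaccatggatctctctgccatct
Nfkbia: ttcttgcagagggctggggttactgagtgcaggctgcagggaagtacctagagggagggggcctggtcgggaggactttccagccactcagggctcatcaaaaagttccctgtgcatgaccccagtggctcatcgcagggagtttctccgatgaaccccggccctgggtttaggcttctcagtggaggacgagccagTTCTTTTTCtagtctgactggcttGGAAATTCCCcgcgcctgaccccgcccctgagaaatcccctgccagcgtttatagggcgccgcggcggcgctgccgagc

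Of the 20 genes with a larger response in KO1, 16 had a window in the RefSeq table. A GAS match was present for 5 of these, an ISRE match for 4 and an NF-kB match for 3, and 8 held any of them. Among all 27025 genes with a window, the shares were 9.55% for GAS, 9.76% for ISRE, 9.55% for NF-kB and 25.9% for any. A match is a description of letters and was not tested as a binding site.

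Further ISGs with a larger response in KO1 started lower and ended at or slightly above the level of KO2. Parp14, an ADP-ribosyltransferase gene, had means of 39.2 ± 1.6 (SD, n = 3) and 50.8 ± 3.1 CPM in untreated KO1 and KO2 and 666 ± 27 and 623 ± 22 CPM after IFNG (interaction 0.47 ± 0.07, SE). Ifi44, an interferon-induced antiviral gene, had 7.89 to 9.33 CPM and 10.8 to 11.1 CPM untreated and 105 to 123 CPM and 101 to 104 CPM treated (interaction 0.52 ± 0.10, SE). Slfn4, a Schlafen family gene of myeloid cells, crossed over. It was lower in untreated KO1 (14.6 to 17.01 against 18.6 to 24.7 CPM) and higher in treated KO1 (33.7 to 42.8 against 29.9 to 31.2 CPM), with an interaction of 0.86 ± 0.14 (SE). The adjusted p values of these genes were 0.0139, 0.0477 and 0.0188 (edgeR).

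H2-K2, a class I histocompatibility gene of chromosome 17, had the largest positive interaction, 2.74 ± 0.38 (adjusted p = 0.00421, edgeR). Its levels were 2.13, 2.08 and 1.62 CPM in untreated KO1 and 12.6, 11.7 and 14.8 CPM in treated KO1. In KO2 they were 9.37, 8.65 and 3.35 CPM untreated and 6.19, 8.56 and 6.68 CPM treated. KO1 rose in all 3 treated libraries above all its untreated libraries, whereas the treated and untreated libraries of KO2 overlapped. Class I genes have close paralogs, among which uniquely aligned fragments can be split, so this value is uncertain. Atp6v0a1, which encodes a subunit of the vacuolar proton pump, lies 69911 bases from Stat3 on chromosome 11, with no other tested gene between them. Its interaction was 0.44 ± 0.06 (adjusted p = 0.00421, edgeR), from means of 152 and 251 CPM in untreated and treated KO1 and of 187 and 227 CPM in KO2.

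For 3 genes the difference lay in the treated libraries instead. Their calls depended on the processing, and passed in 4 (Dusp10), 7 (Malat1) and 4 (Pde1b) of 19 alternative fits or thresholds. This was not particular to them. Csf2rb2 passed in 3, Ifi44 in 4, Cdc42ep2 in 5, Pou2f2 in 6 and Ier3 in 8. The other genes with a larger response in KO1 passed in 11 or more. Dusp10, a phosphatase gene that dampens stress-activated kinases, had 4.47 to 4.70 CPM in untreated KO1 and 4.36 to 5.47 CPM in untreated KO2, and 33.4 to 38.5 CPM against 23.3 to 24.5 CPM after IFNG. Its untreated libraries overlapped and its treated libraries did not (interaction 0.65 ± 0.12, adjusted p = 0.0477, edgeR). Malat1, an abundant nuclear noncoding RNA, followed the same order, with 1381 to 1676 CPM in treated KO1 and 944 to 1195 CPM in treated KO2 (interaction 0.61 ± 0.11, adjusted p = 0.0472, edgeR). Pde1b, a phosphodiesterase gene that degrades cyclic nucleotides, rose in KO1 (log2FC 0.34 ± 0.08) and fell in KO2 (-0.27 ± 0.08) from similar untreated levels of 11.1 and 12.2 CPM. The remaining called genes were Neat1, the noncoding RNA scaffold of paraspeckles, Cdc42ep2, an effector of the small GTPase CDC42, and Pou2f2, a POU domain transcription factor gene. Neat1 had 30.6 to 31.2 CPM in untreated KO1 and 42.1 to 59.8 CPM in untreated KO2, and its treated libraries overlapped (interaction 0.85 ± 0.14). The interactions of Cdc42ep2 and Pou2f2 were 1.12 ± 0.22 and 0.54 ± 0.10.

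The 2 genes with a larger response in KO2 were nearly silent there before treatment. Anpep encodes aminopeptidase N (CD13), a surface peptidase of myeloid cells. It had 77.7 to 84.3 CPM in untreated KO1 and 98.6 to 108 CPM in treated KO1. KO2 held 2 counts in all 3 untreated libraries together and 35 counts in the treated ones, or 0.245 to 0.532 CPM after IFNG. The treated to untreated ratio in KO2 was 17 with an exact 95% interval of 4.37 to 146, which covers counting error only, and in KO1 it was 1.26. Ak4, an adenylate kinase gene, had 3 counts in untreated KO2 and 44 in treated KO2, a ratio of 14.2 (exact 95% interval 4.57 to 71.7), against 51 and 77 counts in KO1. Both differences thus concern levels under 1 CPM in KO2, and the interactions of -3.50 for Anpep and -2.93 for Ak4 were not called in DESeq2 or in edgeR's fit of all 30 libraries.

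Since the interaction equals the KO1 minus KO2 difference after IFNG minus that difference before IFNG, each called gene can be split into its parts. Of the 22 called genes, the clone difference passed an adjusted p of 0.05 only before treatment for 13. It passed only after treatment for 3 (Dusp10, Malat1 and Pde1b) and in both for 6. A difference that did not pass is not shown to be absent. After IFNG, Nfkbia, Zfp36 and Stat3 missed the threshold narrowly (adjusted p = 0.0502, 0.0550 and 0.0679, edgeR). The treated libraries of Zfp36 and Stat3 did not overlap between the clones. All 20 genes with a larger response in KO1 had a negative log2 difference before treatment, and in 17 of them the untreated difference was larger in size than the treated one. The untreated libraries of the clones did not overlap for 17 of the 20, and the treated libraries for 11. Overlap was not counted over all genes tested, so whether these counts are unusual cannot be said. The shares given next are of genes called at an adjusted p under 0.05, which is a different measure. Across all genes tested, 1258 (8.75%) were higher in untreated KO1 and 1587 (11%) in untreated KO2, and after IFNG 1272 (8.85%) were higher in KO1 and 1316 (9.16%) in KO2. These parts come from the same libraries that made the call and describe it without adding evidence.

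**Figure D2:**
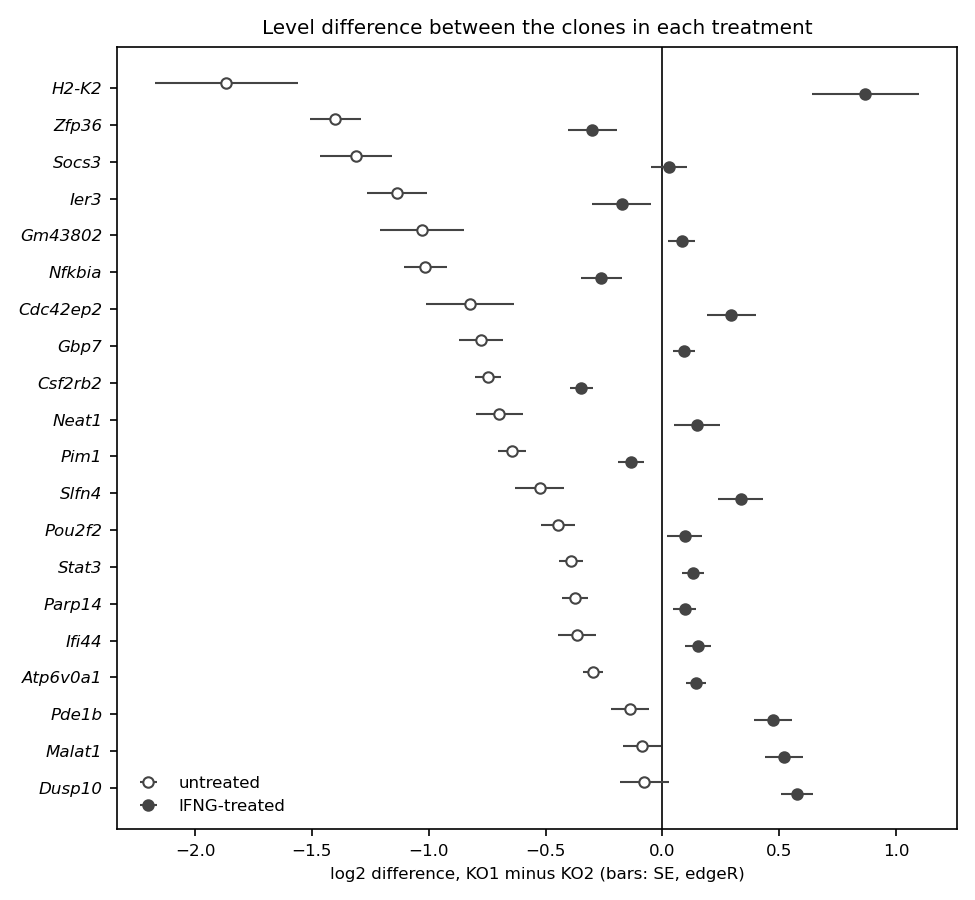
Log2 difference in level, KO1 minus KO2, for the 20 genes with a larger response in KO1, in untreated (open) and IFNG-treated (filled) libraries with SE bars from edgeR. The open points of all 20 genes lie left of 0, from H2-K2 at -1.87 to Dusp10 at -0.08. The filled points lie on both sides of 0, from Csf2rb2 at -0.35 to H2-K2 at 0.87.

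Groups of related genes were described by their counts and medians beside the same values over all genes tested, where 7508 of 14370 interactions were positive, the median was 0.0063, and 677 genes had a positive and 250 a negative interaction at an unadjusted p under 0.05. The groups were chosen with results of these data known. NF-kB subunits and inhibitors leaned toward KO1, with 13 of 14 positive, a median of 0.25, 8 at an unadjusted p under 0.05 and 1, Nfkbia, past the adjusted threshold. Their median level difference, KO1 minus KO2, was 0.082 untreated and 0.24 after IFNG, whereas Nfkbia was at -1.01 and -0.26. Untreated, 2 were higher in KO1 and 3 in KO2. After IFNG, 6 were higher in KO1 and 0 in KO2 (8.85% and 9.16% of all genes tested). Within this group the untreated level of Nfkbiz, which encodes an atypical nuclear member, was lower in KO1 (17.7 against 34.7 CPM), whereas Tnfaip3, which encodes the inhibitor A20, had 11.9 and 10.7 CPM in untreated KO1 and KO2 and was higher in KO1 after IFNG (46.8 against 25.1 CPM). Their interactions of 0.66 ± 0.18 and 0.77 ± 0.24 had adjusted p values of 0.278 and 0.438 (edgeR).

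Among 11 guanylate-binding proteins, all rose in both clones, 8 interactions were positive and Gbp7 alone passed the threshold. The 6 members with at least 30 counts in every group had a median of 0.40, among them Gbp2 at 0.45 ± 0.13 and Gbp2b at 0.43 ± 0.15 (adjusted p 0.373 and 0.508, edgeR). Of 11 receptor, JAK and STAT genes, 9 were positive with a median of 0.074, and 7 were higher in untreated KO2 while 0 were higher in untreated KO1, against 11% and 8.75% of all genes tested. Irf1 (0.36 ± 0.08, adjusted p = 0.0935) and Tnf (0.72 ± 0.17, adjusted p = 0.159) had lower untreated levels in KO1 and did not pass the threshold for the interaction in edgeR. Both calls changed with the processing, since with no filter beyond 1 count Irf1 (adjusted p = 0.00600) and Tnf (adjusted p = 2.01e-18) passed in edgeR, and Irf1 passed in DESeq2 (adjusted p = 0.00519).

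Immediate early genes differed in level more than in response. Of 21 tested, 12 were higher in untreated KO2 (11% of all genes tested were) and 8 in treated KO2 (9.16%), and 0 were higher in KO1 in either treatment. Their interactions were split, with 10 positive and a median of -0.014, and Zfp36 and Ier3 were called. Egr1, a growth-signal transcription factor gene, had 3.82 and 13.1 CPM in untreated KO1 and KO2 and 9.48 and 33.5 CPM after IFNG, so its level differed while its response was nearly the same (interaction -0.05 ± 0.21, adjusted p = 0.996, edgeR).

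Other parts of the IFNG program had few or no called interactions. All 15 immunity-related GTPases and all 25 antiviral genes tested rose in both clones. No GTPase interaction passed even an unadjusted p of 0.05, and among antiviral genes 5 positive and 0 negative ones did, with Ifi44 called. Irgm1 had 1180 and 1104 CPM in treated KO1 and KO2 (interaction 0.14 ± 0.07). Of 21 class I antigen-presentation genes, 19 had a positive interaction but the median was 0.050 and none passed the threshold. The class I gene H2-K2, called above, was not a member of this group. Cxcl10, a chemokine gene that attracts T cells, had 1028 CPM in treated KO1 and 604 CPM in treated KO2 (log2 difference 0.77 ± 0.09, adjusted p = 4.74e-06, edgeR), from untreated levels under 1 CPM, and its interaction of 0.25 ± 0.57 was not called. Cholesterol synthesis, DNA replication and glycolysis genes had medians of -0.0010, -0.028 and -0.066 with 0 called. Of 6 MHC class II genes tested, 2 had a positive interaction with a median of -0.23, 0 passed an unadjusted p of 0.05, and 0 were called as higher or lower after IFNG in either clone by edgeR. Of 17 inflammatory mediators, 11 were positive with a median of 0.20, and 0 were called by edgeR, with 4 positive at an unadjusted p under 0.05.

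**Figure D3:**
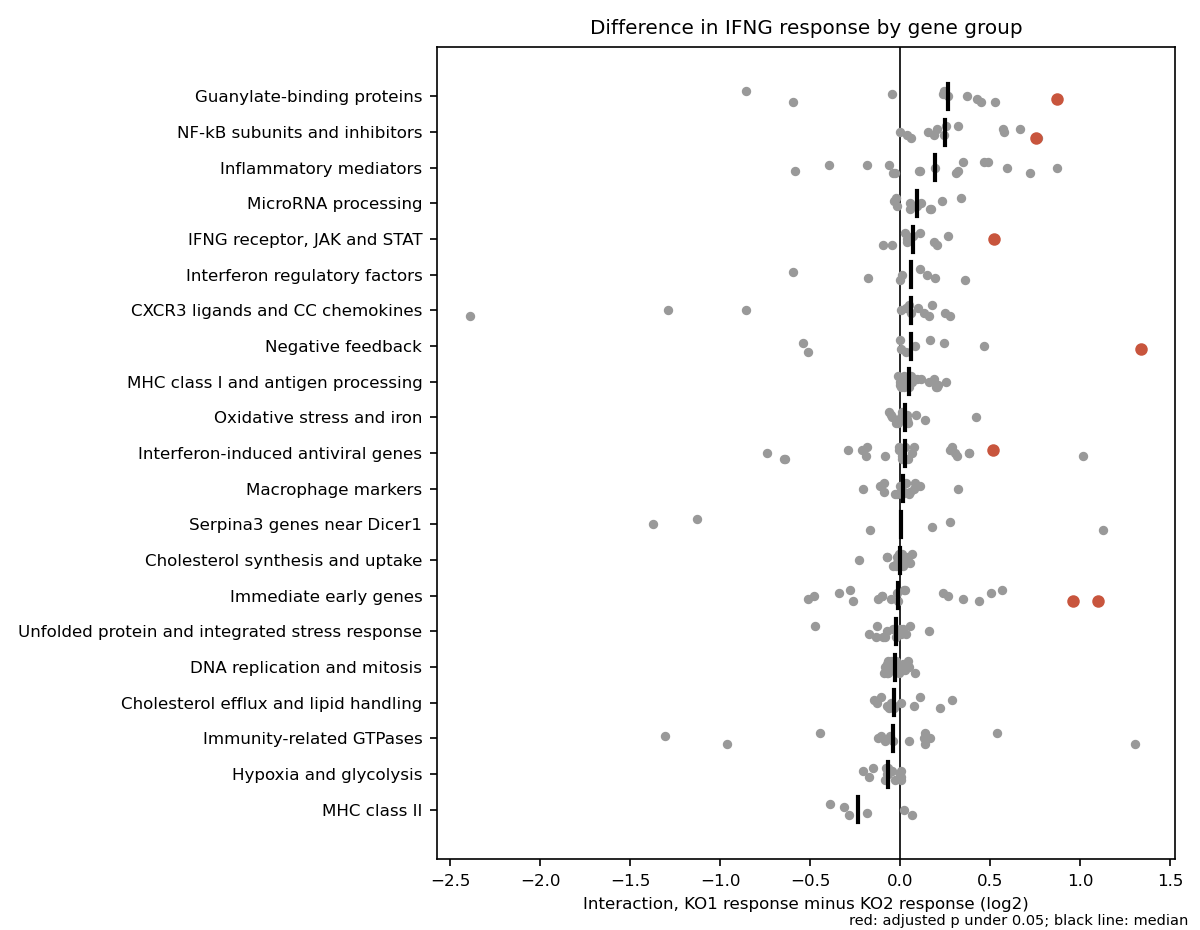
Interaction (KO1 response minus KO2 response, log2) of each tested gene in 21 gene groups with at least 5 tested members, with called genes in red and the group median as a black line. Guanylate-binding proteins and NF-kB genes have the highest medians, 0.27 and 0.25, followed by inflammatory mediators at 0.20, and MHC class II genes have the lowest, -0.23.

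To compare the overall scale of the response, 499 genes induced by IFNG in the 18 WT libraries were taken (adjusted p under 0.05, log2FC over 1 and at least 1 CPM in treated WT), of which 497 were tested in the KO clones. Their choice used no KO library. The median log2(CPM + 0.5) of these genes was 2.18 ± 0.01 (SD, n = 3) in untreated KO1 and 2.32 ± 0.03 in untreated KO2, and 4.86 ± 0.03 and 4.73 ± 0.06 after IFNG. The median response of the 3 treated libraries was 1.59, 1.57 and 1.59 in KO1 and 1.46, 1.46 and 1.53 in KO2 on the log2 scale, without overlap. Each was taken against the mean of its clone's 3 untreated libraries, so the spread of these values leaves out that between untreated libraries. Gene by gene, the response in KO1 exceeded that in KO2 for 356 of 497 genes (71.6%), with a median difference of 0.11, which compares with 52.6% and 0.0077 over all genes tested. The difference was made up of a median untreated level 0.068 lower in KO1 (log2 difference -0.068) and a median treated level 0.039 higher.

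On the log2(CPM + 0.5) scale, the slope of the first principal axis of KO1 responses on KO2 responses was 1.02 over these genes, with a Pearson r of 0.98, close to the line of equal responses. Of the 497 genes, 12 had a called interaction, all larger in KO1. By untreated level in KO2, the median response difference was 0.057 for 148 genes under 1 CPM, 0.12 for 161 genes from 1 to 10 CPM and 0.11 for 188 genes over 10 CPM.

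**Figure D4:**
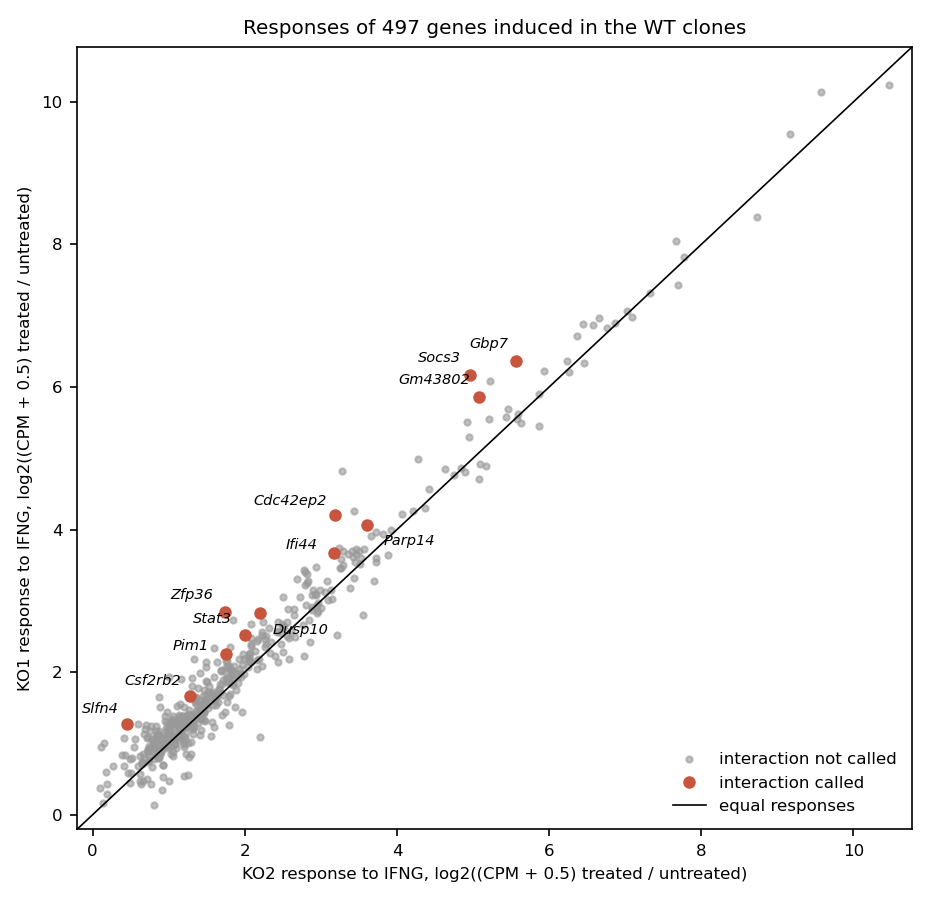
Response to IFNG in KO1 against KO2 for 497 genes induced in the WT clones, on the log2((CPM + 0.5) treated / untreated) scale, with the line of equal responses. The 12 genes with a called interaction (red) lie above the line, and the slope over all 497 genes is 1.02.

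**Figure D5:**
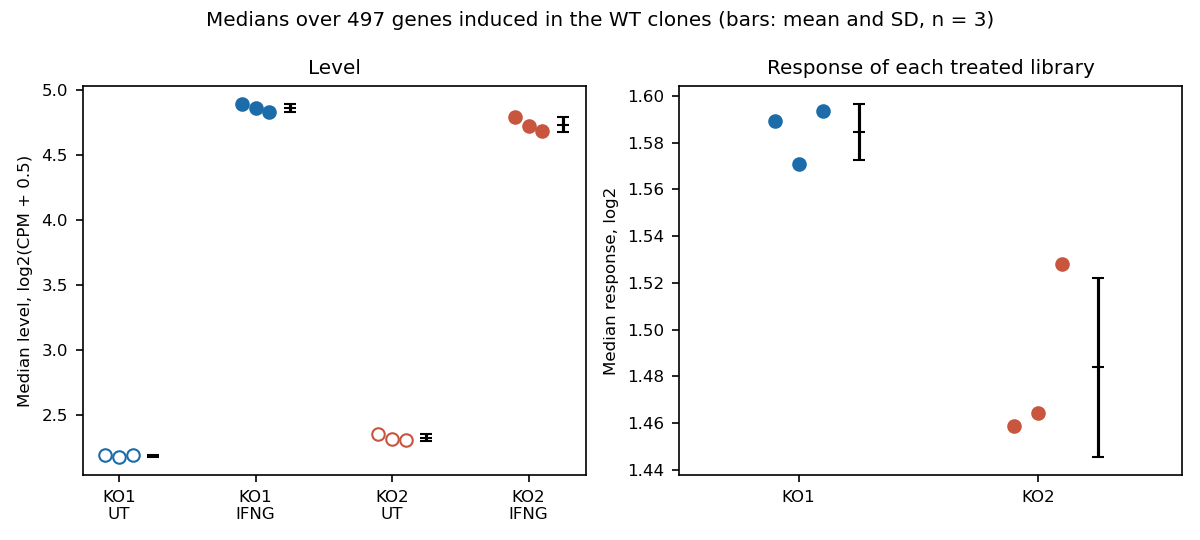
Median level (left) and median response (right) of 497 genes induced in the WT clones for each library, with mean and SD of 3 libraries. Untreated KO1 libraries lie below untreated KO2 libraries, and the treated KO1 libraries have median responses of 1.57 to 1.59 against 1.46 to 1.53 in KO2. Responses of a clone share the mean of its 3 untreated libraries as baseline, so their SD leaves out the untreated spread.

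The differences between KO1 and KO2 were set beside those between WT clones. The WT clones were also isolated by limiting dilution but, according to the paper, had no electroporation. The part of that step in any difference was not tested. The columns used for WT2 and WT3 carry other clone names in the table of all libraries and were tied to these names by the deposited tables of single clones, so which clone is WT2 and which WT3 rests on that match. The interaction was called for 162 of 14134 genes (1.15%) between WT1 and WT2, for 263 of 14413 (1.82%) between WT1 and WT3 and for 19 of 13586 (0.140%) between WT2 and WT3. These 3 comparisons share WT libraries with each other but none with the KO clones. At least 1 of the 3 pairs gave a call for 2.33% of 13452 genes tested in all of them. Of the 20 genes with a larger response in KO1, 7 were also called between WT1 and WT2, 6 between WT1 and WT3 and 1 between WT2 and WT3. In the first pair these were Socs3, Stat3, Pim1, Nfkbia, Ier3, Csf2rb2 and Cdc42ep2, each with the smaller response in WT1. Untreated WT1 had the highest level of Socs3 among the WT clones, 12.2 CPM against 3.46 CPM in WT2 and 3.96 CPM in WT3 on the scale of all 30 libraries, and for Pim1 the values were 116, 31.6 and 34.1 CPM. Over the 20 genes, the KO1 response lay above the range of the 3 WT clones for 16 and within it for 4, and the KO2 response lay below that range for 8, within it for 10 and above it for 2. Over all genes tested, 22.1% lay above the WT range in KO1 and 21.7% below it in KO2. Over the 497 genes induced in WT these shares were 30.6% and 28.6%. Because the 20 genes were chosen for a KO1 response above that of KO2, their position is partly fixed by the choice. Untreated KO1 levels were below the WT range for 9 genes and within it for 11, and untreated KO2 levels were above it for 7, within it for 11 and below it for 2. Over all genes tested, 27.1% were below the range in untreated KO1 and 23.1% above it in untreated KO2. Over the 497 genes induced in WT these shares were 38.6% and 17.9%.

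Over the genes induced in WT cells, the median response was 1.46, 1.58 and 1.64 in WT1, WT2 and WT3 and 1.54 and 1.47 in KO1 and KO2 when all 30 libraries were scaled together. The median difference between KO1 and KO2 on that scale was 0.082, and between WT clones it was -0.055 for WT1 minus WT2, -0.16 for WT1 minus WT3 and -0.12 for WT2 minus WT3. The KO difference lay within the span of sizes between WT clones. The number of called genes depended on single libraries and on the filter, with 7 to 31 genes larger in KO1 when 1 library was left out, 41 in DESeq2 and 12 when at least 10 counts were required in every library. Gbp7, Socs3, Stat3, Zfp36, H2-K2 and Atp6v0a1 passed the threshold in all 19 alternatives. Csf2rb2 and Ak4 passed in 0 of the 12 fits that left out 1 library, and Dusp10 and Pde1b in 1 each.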

How the data were processed

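Polyadenylated RNA libraries (KAPA mRNA HyperPrep, Illumina NovaSeq, paired-end) were made by the authors, who used BBDuk for trimming, HISAT2 (2.1.0) for alignment to mm10, SAMtools (1.10) to retain unique alignments and featureCounts (1.6.2, reversely stranded) for counting after technical replicates had been combined, where, per the file headers, a fragment over overlapping genes counts for each. The deposited values are raw counts per gene. RNA input and adapters varied without being assigned to libraries in the labels, so a batch could not be checked. Depth was 19820090 to 37992642 counts per library, and SEs show the precision.

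The analysis used edgeR 4.0.16 under R 4.3.3. Genes kept by filterByExpr were scaled by TMM and fitted by quasi-likelihood with 1 mean per group over 12 libraries. Contrasts gave the interaction, each clone's response and the clone difference within each treatment, with Benjamini-Hochberg adjusted p under 0.05 called. SE was the absolute log2FC over the square root of F. CPM used TMM-scaled totals, and log values used log2(CPM + 0.5). Nothing in the labels says that the 3 libraries of a group came from separate cultures, so p-values measure the spread between these libraries, which may be technical. Alternatives were DESeq2 1.42.0, RLE factors, other count filters, a fit of all 30 libraries, a threshold of 0.01, thinning to the smallest total, other limits for genes induced in WT, log2(CPM + 2) and leaving out each library. The script was tested on simulated data.

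Named genes were the 12 with the largest interaction and the 5 with the smallest p in each direction among called genes with at least 30 counts in each group, called genes with fewer counts but at least 5 CPM in some group, up to 4 called members of each gene group (or its 2 most abundant members where none was called), and the checks Dicer1, Irf1, Gbp2b and Ctcf, with 1 further check gene that is not reported here. Ctcf, a zinc-finger architectural protein gene, had an interaction of -0.0071 (adjusted p = 1.00, edgeR). Atp6v0a1, Parp14, Pim1, Csf2rb2, Malat1, Pou2f2, Ak4, Nfkbiz, Tnfaip3, Gbp2, Egr1, Ccrl2, Ptger4 and Lncpint were named after their values were seen. The comparison, gene groups and tests were chosen with earlier results of these data known. Columns carry no replicate number, and libraries were numbered by column order as names only. Gene symbols were matched for 54079 of 54146 identifiers.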

Additional observations from a re-analysis of the deposited data

Results flagged for a closer look

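The IFNG response differed between the 2 KO clones, by edgeR's interaction test at an adjusted p under 0.05, for 22 genes, which are listed here by the KO1 minus KO2 difference of log2FC. H2-K2 differed by 2.74, Socs3 by 1.34, Cdc42ep2 by 1.12, Gm43802 by 1.11 and Zfp36 by 1.099. Between 0.7 and 1 were Ier3 at 0.96, Gbp7 at 0.87, Slfn4 at 0.86, Neat1 at 0.85 and Nfkbia at 0.75. Dusp10 differed by 0.65, Pde1b by 0.61, Malat1 by 0.61, Pou2f2 by 0.54, Stat3 by 0.52, Ifi44 by 0.52 and Pim1 by 0.51. The smallest positive differences were 0.47 for Parp14, 0.44 for Atp6v0a1 and 0.40 for Csf2rb2. The negative ones, with the larger response in KO2, were -3.50 for Anpep and -2.93 for Ak4. Of the 22 genes, 9 were also called between at least 1 pair of WT clones, against 2.33% of 13452 genes tested in all 3 pairs.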

How the results depend on the processing

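No paired analysis was possible because the columns of the deposited tables carry no replicate number, so both planned fits with a replicate block were not run. The count of genes with a larger response in KO1 went from 20 to 41 in DESeq2 (the 20 among them), 118 with no filter beyond 1 count (the 20 among them), 12 with at least 10 counts in every library and 6 at an adjusted p under 0.01. The count larger in KO2 went from 2 to 20 with no filter, 0 with at least 10 counts in every library or at 0.01, and 1 after thinning, while DESeq2 called 2 and the fit of all 30 libraries called 3, without Anpep (adjusted p = 0.0897 and 0.173) or Ak4 (no adjusted p in DESeq2, 0.0591 with all libraries). Of the 20 genes larger in KO1, 13 were among the 17 called with all libraries. Over the 12 fits that left out 1 library, the counts ranged from 7 to 31 and from 0 to 2. The first fell to 7 to 11 when the library left out was any of the 3 untreated KO1 libraries, untreated KO2 library 1 or 2, or treated KO2 library 1 or 2, and rose to 31 without treated KO2 library 3. The second fell to 0 without any single untreated KO2 library or treated KO2 library 1, and to 1 without untreated KO1 library 2 or 3, treated KO1 library 2 or 3, or treated KO2 library 2. At 0.01, genes lower after IFNG in KO1 numbered 1274, and those higher in KO1 and in KO2 numbered 630 and 1009 untreated and 685 and 850 treated. Leaving out 1 library gave 785 to 1465 genes higher in untreated KO1 (785 without untreated KO2 library 1) and 840 to 1309 higher in treated KO1 (840 without treated KO2 library 2). DESeq2 called 45 genes between WT2 and WT3 in place of 19. The slope was 1.03 with log2(CPM + 2). The median response difference stayed between 0.084 and 0.12 in the fits without 1 library. Irf1 passed in DESeq2 and with no filter, and Tnf with no filter. No interaction of a called gene changed sign in the 19 alternatives. Depth limits what can be said of Anpep and Ak4, with 2 and 3 counts in untreated KO2. The cause of these dependences was not tested.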

Other observations

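Genes repressed by IFNG in the WT clones (152 tested in the KO clones, adjusted p under 0.05, log2FC under -1 and at least 1 CPM in untreated WT) had a median response of -0.92 in KO1 and -0.99 in KO2. The log2 response in KO1 was above that in KO2 for 84 of them (55.3%, beside 52.6% of all genes tested). Their interaction was called for 0 genes. Unlike the induced genes, they were lower in KO1 in both treatments, with median log2 differences of -0.16 untreated and -0.097 after IFNG. Among microRNA processing genes, of which Dicer1 is 1, 8 of 11 interactions were positive with a median of 0.095, 4 had an unadjusted p under 0.05 and 0 were called by edgeR at an adjusted p under 0.05.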
